A study of Mus musculus with 8 samples.

Results

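In mouse liver DNA, 10 imprinted genes whose promoters carry methylation on the maternal chromosome were examined. They are Peg3, Mest, Peg10, Sgce, Plagl1, Grb10, Nnat, Nap1l5, Zrsr1 and Inpp5f, chosen by name as members of this class rather than by any measured value. Their CG sites were taken within 3 kb of any annotated transcript start, and 642 of the 1469643 CG sites with a read in the series lay there, each strand of a CG being 1 site. Of these, 595 had at least 10 reads in at least 1 mouse and 102 had at least 10 reads in all 8 mice. Peg10 and Sgce start back to back and share all 17 of their CGs that had a read, so they were described as 1 locus. Peg3 was the only member with no CG that had 10 reads in all 8 mice.

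The mice were 1 female and 1 male of each of 4 kinds, all 16 weeks old and fasted for 16 hours. The parental strains were DBA/2J (DBA) and C57BL/6J (B6). The F1 mice came from reciprocal crosses, BXD from a B6 mother and a DBA father and DXB from a DBA mother and a B6 father. Methylation was read by reduced representation bisulfite sequencing (RRBS), in which MspI cuts DNA at CCGG, bisulfite turns unmethylated cytosine into thymine, and the share of reads that still show a cytosine is the level. Each kind and sex had 1 mouse, and the DNA was from whole liver, so a change in the mixture of cells and a change within cells cannot be told apart.

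An imprinted gene is expressed from the chromosome of only one parent. In this class the mark is set in the oocyte, it survives the erasure that follows fertilization because the zinc-finger protein ZFP57 holds on to methylated copies of its motif, and it is then present on the maternal and absent from the paternal chromosome in all tissues. A tissue sample that reads both chromosomes therefore lies near the middle of the scale at such a promoter, in either sex and whichever way a cross was made. Several of these promoters are internal starts or lie in an intron of a host gene whose own promoter is free of methylation, and most of the transcripts are expressed from the paternal copy.

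Libraries differed in ways that touch the values below. They held 200744653 to 845527087 cytosine calls, and cytosines with at least 10 reads had a mean coverage of 51.5 to 103 reads. Covered positions lay up to 100 bases from an MspI cut in the BXD male and in the females of both parental strains, up to 76 bases in the parental males, and up to 50 bases in the remaining F1 libraries, so the mice were not always measured at the same CpGs. The library labelled B6 male held DBA tags in stretches of the genome. Within 1 Mb of Mest 99.9% of its tagged calls were DBA, and near Zrsr1 45.8%, while near the other members that had tagged calls within 1 Mb the share was at most 4.09%. Cytosines outside CG were methylated at 0.533% (CHG) and 0.509% (CHH) of calls near the members, which counts unconverted and truly methylated cytosines together.

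Reference sequences from the stretches described below (NCBIM37, plus strand) are shown because the methylated CpGs in them carry the result. A stretch is the longest run of neighbouring measured CpGs with a mean level from 25% to 75%, and capitals mark the CpGs measured in at least 4 mice. No part of an annotated UTR is shown, which leaves out Peg10 and Sgce. The Zrsr1 sequence overlaps an annotated exon of Commd1. The sequences of Plagl1, Nap1l5 and Inpp5f are whole stretches, and the others are excerpts, 184 of 216 bp at Mest, 168 of 1468 bp at Nnat, 149 of 1497 bp at Zrsr1 and 36 of 1062 bp at Grb10. The sequences are chr11:22872845-22872993 upstream of Zrsr1 within its host gene Commd1, chr2:157386047-157386214 in Nnat, running from a noncoding exon into the first bases of a coding exon and lying within Blcap, chr6:30685294-30685477 in an intron of Mest, chr6:58856824-58856872 in the coding exon of Nap1l5, chr7:135831670-135831722 in an intron of Inpp5f ahead of an internal start, chr11:11926501-11926536 in an intron of Grb10 between internal starts, and chr10:12810429-12810459 just upstream of Plagl1.
Zrsr1: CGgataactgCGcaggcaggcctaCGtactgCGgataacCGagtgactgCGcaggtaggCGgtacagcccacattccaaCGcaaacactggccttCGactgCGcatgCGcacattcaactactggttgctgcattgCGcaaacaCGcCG
Nnat: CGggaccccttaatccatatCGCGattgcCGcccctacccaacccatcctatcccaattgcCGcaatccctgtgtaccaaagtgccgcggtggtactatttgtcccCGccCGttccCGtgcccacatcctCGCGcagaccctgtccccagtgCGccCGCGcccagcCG
Mest: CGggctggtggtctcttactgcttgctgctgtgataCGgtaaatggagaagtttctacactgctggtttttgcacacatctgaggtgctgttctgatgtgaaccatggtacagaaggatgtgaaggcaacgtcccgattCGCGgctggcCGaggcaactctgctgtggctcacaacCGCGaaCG
Nap1l5: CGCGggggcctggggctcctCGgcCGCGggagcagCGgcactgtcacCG
Inpp5f: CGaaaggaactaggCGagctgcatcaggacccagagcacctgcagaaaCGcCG
Grb10: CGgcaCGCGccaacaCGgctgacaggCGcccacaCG
Plagl1: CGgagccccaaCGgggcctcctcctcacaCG

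Intermediate methylation was found in every mouse at a subset of the CGs of these promoters. Of the 102 CGs measured in all 8 mice, 21 (20.6%) had a level from 25% to 75% in every mouse, against 2.53% of the 94074 CGs near any transcript start and 4.54% of all 176951 CGs. Zrsr1 held 9 of these CGs, Nnat 7, Mest 2, Grb10 2 and Peg10/Sgce 1, and Plagl1, Nap1l5 and Inpp5f held none. A further 14 CGs were below 25% in every mouse, 7 at the main promoter of Grb10 and 7 at that of Inpp5f, and 1 CG of Nnat was above 75% in every mouse. The remaining CGs crossed a limit in at least 1 mouse. Without the B6 male, 33 of 117 CGs lay in the range in every mouse. Among CGs whose mean over mice was from 25% to 75%, the share in range in every mouse was 33.3% at the members (21 of 63) and 33.7% at other CGs (8016 of 23804).

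**Figure D1:**
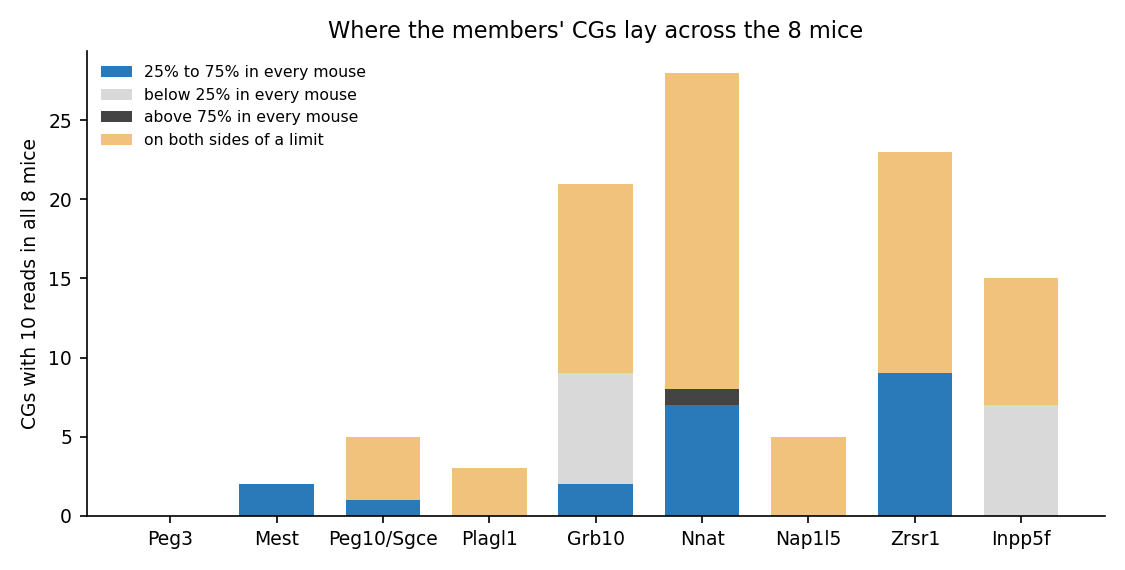
Number of CGs with at least 10 reads in all 8 mice at each locus (vertical axis), split by whether every mouse lay from 25% to 75%, below 25% or above 75%, or whether mice lay on both sides of a limit. Zrsr1 (9 of 23) and Nnat (7 of 28) gave most of the CGs that were intermediate in every mouse, and Peg3 had no CG to count.

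Runs of intermediate CpGs were found at 8 loci and held 116 CpGs. A run of 3 or more CpGs was present at all 9 members with a measured CpG, against 14.6% of 21112 genes, and a run of 10 or more at 5 members (Zrsr1, Nnat, Grb10, Peg10 and Sgce), against 0.63%, these sizes being chosen after the runs were seen. Their lengths were 1497 bp at Zrsr1, 1468 bp at Nnat, 1062 bp at Grb10, 216 bp at Mest, 136 bp at Peg10/Sgce, 53 bp at Inpp5f, 49 bp at Nap1l5 and 31 bp at Plagl1. RRBS reads only the ends of MspI fragments, and the next measured CpG lay from 8 bp (Zrsr1) to 137727 bp (Nap1l5) beyond a stretch, so a length is a lower limit on the sides where that CpG was far. Lengths also rest on the limits chosen. With gaps of at most 500 bases in place of 1000, Nnat shortened to 168 bp and Zrsr1 to 413 bp, Nnat was also 168 bp with at least 20 reads, and Mest was 40 bp with a range of 30% to 70%. The mean level lay from 40% to 60% at 6 of the 8 stretches, and the range of 25% to 75% that defines a stretch helps to fix this.

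**Figure D2:**
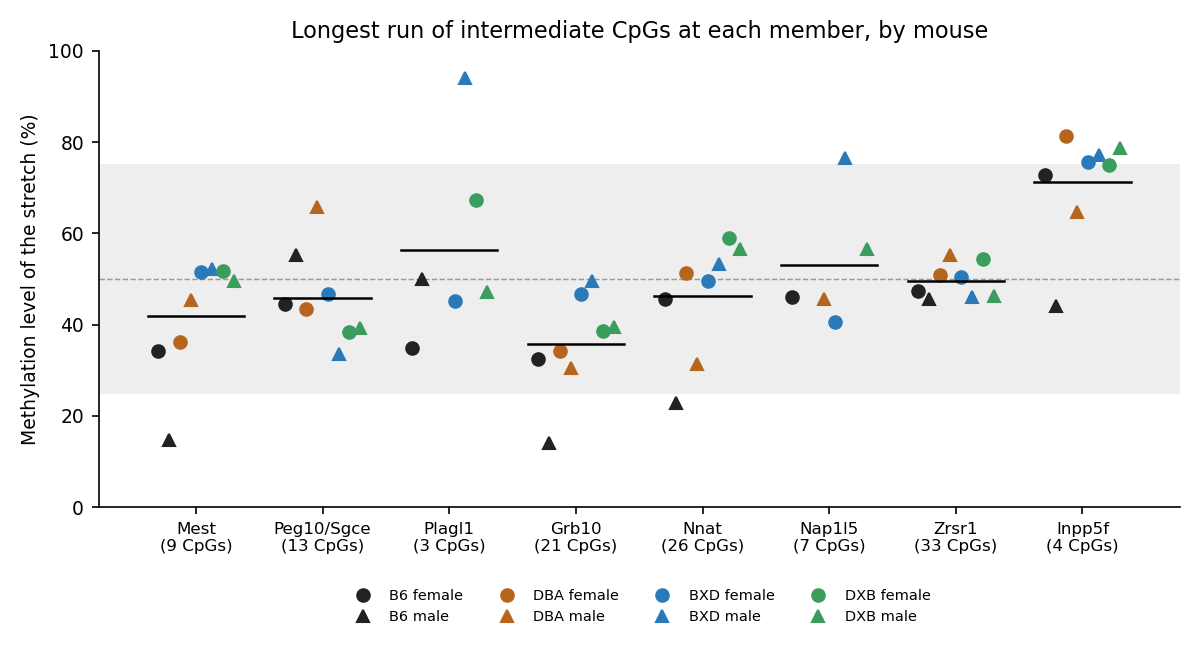
Methylation level of each stretch (vertical axis, percent) in each mouse, with the mean over mice as a line and the range of 25% to 75% in grey. Stretch means at Zrsr1 had the narrowest range among mice (45.6% to 55.3%), and the B6 male lay lowest at 5 of the 7 loci where it had a value, and at 4 of 6 over CpGs read in all mice.

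Zrsr1 is a retrogene related to the splicing factor U2AF and lies within Commd1. Its stretch, chr11:22872757-22874253, ran from an offset of -458 bp to 1037 bp from the transcript start, into the coding exon, with 21139 reads. The stretch read 47.5% in the B6 female, 45.6% in the B6 male, 50.9% in the DBA female, 55.3% in the DBA male, 50.5% in the BXD female, 46.2% in the BXD male, 54.5% in the DXB female and 46.2% in the DXB male, over 26 to 33 of its 33 CpGs. The mean over mice was 49.6% ± 3.81 (SD, n = 8), and the B6 male carried both kinds of tag there. Single CGs varied far more than this mean over CpGs. In the DBA male they ran from 15.6% at 22874145 to 81.8% at 22872993, and the other strand of that last CpG, at 22872992, read 16.2%. The SD between mice at single CpGs was 1.40 times that of counting, above the ratio at Peg10/Sgce (1.28) and Nap1l5 (1.29). Over the 16 CpGs with 10 reads in every mouse the range was 47.3% to 59.4%. The CpG with the most reads, 719 bp inside the gene, was at 50.2% ± 6.21 (SD, n = 8) from 1847 reads.

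Upstream of the stretch at Zrsr1 lay a dip and then another run. From an offset of -732 bp up to the stretch the mean level of CpGs was 10.6% to 27.8%, and from -1216 bp to -951 bp it was 26.1% to 58.0%, a second run of 8 CpGs. Past the 3' end, the nearest measured CpG was 4079 bp away and stood at 57.8% ± 7.72 (SD, n = 5). The CpGs near starts of Commd1 that no member shares averaged 14.5%, with 21 of 25 below 25%.

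Plagl1 encodes a zinc-finger transcription factor that restrains cell growth. Its stretch, chr10:12810429-12810459, was 3 CpGs read from 1 fragment end and measured in 6 mice. The levels were 34.9% in the B6 female, 50% in the B6 male, 45.1% in the BXD female, 94.0% in the BXD male, 67.2% in the DXB female and 47.2% in the DXB male. The BXD male stood far above the others, from 28 reads a CpG, and the mean was 56.4% ± 21.2 (SD, n = 6). The next measured CpG, 89 bp downstream and past the transcript start, was at 14.1% ± 6.01 (SD, n = 5). A second run of 3 CpGs, from 12836886 to 12837145 on chromosome 10, lay in an intron near a later start.

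Peg3 encodes a zinc-finger protein expressed from the paternal copy. Its promoter was barely sampled, with 10 CGs that had reads, all in an intron, and 10 reads at 10 of them in the B6 female and at 5 in the DXB female. At position 6682653 of chromosome 7 (plus strand) the B6 female had 5 of 12 reads methylated and the DXB female 6 of 15. On the minus strand, position 6682958 had 1 of 15 reads methylated in the B6 female and 3 of 14 in the DXB female. No CpG of Peg3 had 10 reads in 4 mice, so its level was not determined at this depth.

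Grb10 encodes an adaptor that limits insulin and growth-factor receptor signalling, and its methylated island lies at internal starts. The stretch there, chr11:11925740-11926801, had 21 measured CpGs of 118 in the reference. It read 32.4% in the B6 female, 14.1% in the B6 male, 34.1% in the DBA female, 30.4% in the DBA male, 46.7% in the BXD female, 49.6% in the BXD male, 38.7% in the DXB female and 39.6% in the DXB male. The mean was 35.7% ± 11.0 (SD, n = 8), below the middle of the scale. The 4 F1 mice lay above the 4 parents, as they did at the stretch of Mest, and no share over other runs was computed. Mice were not all read at the same CpGs of these stretches. Over the 2 Mest CpGs read in every mouse the groups overlapped, the B6 female being at 55.6% and the DXB male at 52.7%. Only 3 CpGs of the Grb10 stretch had 10 reads in all mice, and over these the range narrowed to 27.4% in the B6 male and 44.2% in the DXB female. The edges of this stretch were not sharp. The CpG 37 bp on the 3' side was at 16.9% ± 9.35 (SD, n = 5, without 3 of the F1 libraries). Past it, the means over the 8 mice were 25.1% to 31.2% in a second run of 7 CpGs, from 11925631 to 11925674. Mice differed widely there. Single CGs of that run read 6.78% to 13.6% in the B6 male, 10.2% to 16.7% in the DBA male and 47.4% to 54.4% in the DXB female. The CpG 35 bp on the other side was at 77.8% ± 10.2 (SD, n = 4), and the 4 CpGs past it read 35.5% to 49.1% in the same mice.

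The main promoter of Grb10, upstream of the island at 11937404, was low, but the most upstream start, at 11938686, was not low throughout. There the CpGs at 11938628 and 11938675 read 33.0% ± 9.81 and 39.5% ± 13.4 (SD, n = 8), and the 3 others nearest that start 13.2% to 22.6%. Within 750 bp of the start at 11937404, 83 CpGs outside the MspI site had a median level of 1.02%. The 10 CpGs inside an MspI site there had a median of 15.3%, from 7.56% to 29.4%.

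Inpp5f encodes an inositol phosphatase, and a shorter imprinted transcript starts inside the gene. Ahead of that start, chr7:135831670-135831722 held 4 CpGs in range, at 72.8% in the B6 female, 44.1% in the B6 male, 81.4% in the DBA female, 64.7% in the DBA male, 75.6% in the BXD female, 77.1% in the BXD male, 74.996% in the DXB female and 78.7% in the DXB male. The B6 male was lowest and the mean was 71.2% ± 11.99 (SD, n = 8). The neighbouring CpGs, 65 and 11 bp away, were at 81.0% ± 9.27 and 80.4% ± 8.85 (SD, n = 8), above the upper limit, so the run did not stand apart from its flanks by more than the SD between mice. The main promoter of Inpp5f was low, with a median of 0.377% over 16 CpGs outside MspI sites and 10.4% over 4 CpGs inside them.

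**Figure D3:**
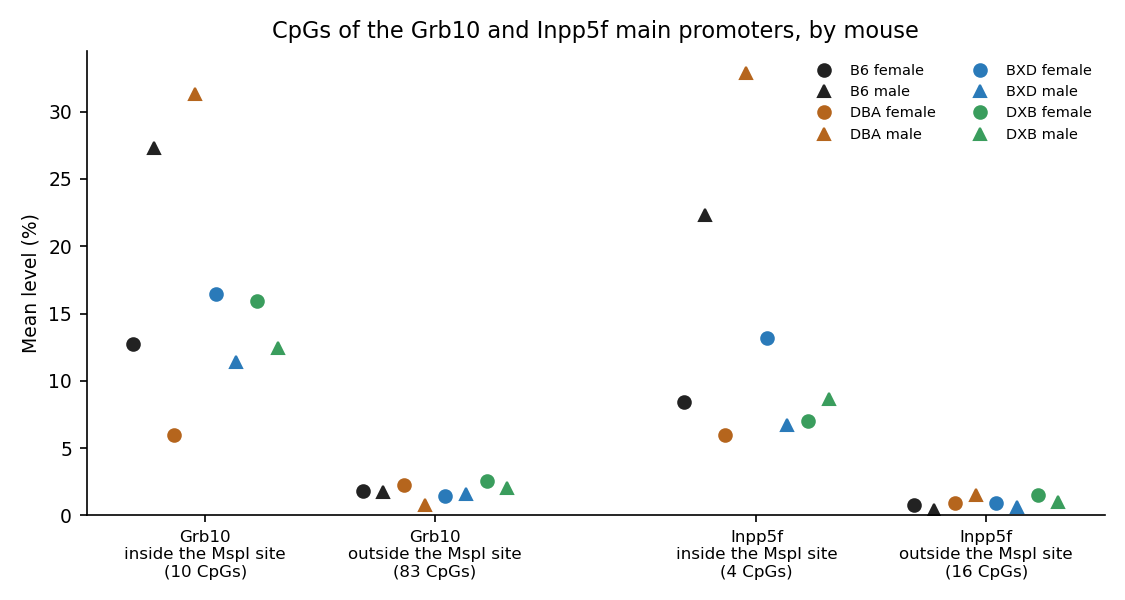
Mean level (vertical axis, percent) of CpGs within 750 bp of the main starts of Grb10 and Inpp5f in each mouse, for CpGs inside and outside the MspI recognition site. CpGs inside the site were higher in every mouse, most of all in the B6 male and the DBA male.

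The gap between CpGs inside and outside the MspI site was not particular to these genes. Over all measured CpGs near starts with a mean below 25%, the median was 11.3% for 52905 CpGs inside the site and 0.465% for 275772 outside it. In the B6 male and DBA male the mean of such CpGs inside the site was 20.9% and 20.8%, against 7.90% to 13.7% in the other 6 mice. In the stretches, 24 CpGs inside the site had a mean of 49.6% and 92 outside it 45.4%. The part of the site in the members' values was not tested, and without CpGs inside it 15 of 75 CGs lay in the range in every mouse.

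Nnat encodes a small membrane protein of the endoplasmic reticulum and lies within Blcap. Its stretch, chr2:157386047-157387514, covered much of the gene with 26 CpGs. The levels were 45.7% in the B6 female, 22.7% in the B6 male, 51.3% in the DBA female, 31.4% in the DBA male, 49.6% in the BXD female, 53.2% in the BXD male, 59.1% in the DXB female and 56.6% in the DXB male. The 2 male parents were lowest, and the mean was 46.2% ± 12.7 (SD, n = 8). Over the 10 CpGs with 10 reads in every mouse they were again lowest, at 24.0% and 29.9%, against 40.2% to 63.1% in the other 6. At the cluster of transcript starts just upstream, CpGs ran from 47.6% to 84.9%, and the CpG next to the stretch was at 78.2% ± 10.6 (SD, n = 8). On the other side the nearest measured CpG, 3995 bp away, was itself intermediate at 33.3% ± 16.8 (SD, n = 8), and there the male parents were highest, at 56.6% (B6) and 63.0% (DBA), against 20.4% to 30.4% in the other mice. The CpGs of Blcap that Nnat does not share averaged 8.14%, with 36 of 41 below 25%.

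**Figure D4:**
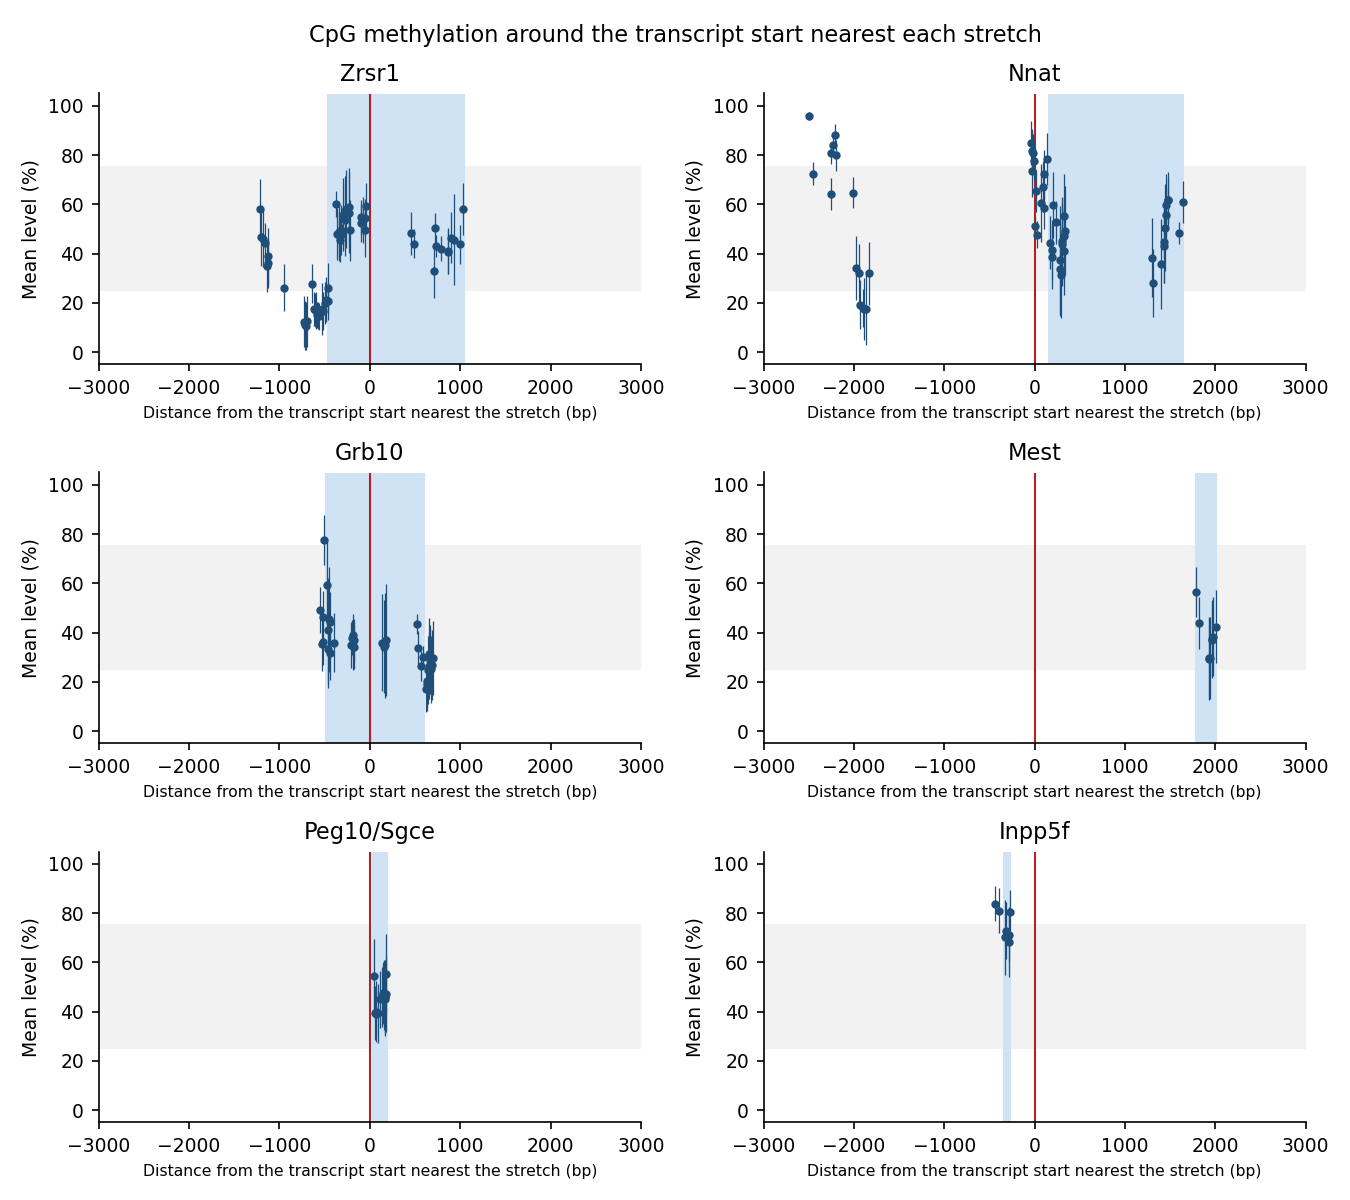
Mean level of each measured CpG (vertical axis, percent, bars SD between mice) by distance in bp from the transcript start nearest the stretch (red line, positive downstream), with the stretch in blue and 25% to 75% in grey. The runs reached 1497 bp at Zrsr1, 1468 bp at Nnat and 1062 bp at Grb10, and Inpp5f lay close to the upper limit.

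Mest encodes a hydrolase-like enzyme of the endoplasmic reticulum and is expressed in growing fat and embryonic mesoderm. Its 9 CpGs, chr6:30685294-30685509, lay in an intron, 1788 to 2002 bp inside the gene from the nearest start. They read 34.2% in the B6 female, 14.7% in the B6 male, 36.2% in the DBA female, 45.5% in the DBA male, 51.6% in the BXD female, 52.2% in the BXD male, 51.8% in the DXB female and 49.5% in the DXB male, the DBA male over 2 CpGs. The B6 male was lowest, and the mean was 41.9% ± 13.1 (SD, n = 8). At the 2 CpGs measured in every mouse it was lowest again, at 31.1% against 45.5% to 59.1% in the other 7. The library labelled B6 male carried DBA chromosomes around Mest by its tags, and the DBA female and DBA male were at 47.7% and 45.5% over the same CpGs. Outside, the nearest measured CpGs were 16809 bp upstream, at 89.9% ± 4.35 (SD, n = 8), and 7096 bp downstream, at 88.8% ± 5.48 (SD, n = 5).

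Peg10, derived from a retrotransposon, and Sgce, which encodes epsilon-sarcoglycan of the muscle membrane complex, are transcribed in opposite directions from the same CpG island. Their 13 shared CpGs, chr6:4697355-4697490, lay in the first exon of Peg10. The levels were 44.4% in the B6 female, 55.3% in the B6 male, 43.5% in the DBA female, 65.9% in the DBA male, 46.8% in the BXD female, 33.5% in the BXD male, 38.5% in the DXB female and 39.3% in the DXB male. Here the 2 male parents were highest, the reverse of their place at Nnat, and the mean was 45.9% ± 10.3 (SD, n = 8). The B6 male was read at 6 of the 13 CpGs, and the other mice at 12 or 13. Reads were few in some mice, with 55 in the B6 male and 59 in the DXB female over the 5 CpGs read in every mouse. The flanking measured CpGs were 13.5 kb and 7849 bp away and stood at 100.0% (n = 5, all reads methylated) and 95.9% ± 4.75 (SD, n = 4).

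Nap1l5 is a retrogene of the nucleosome assembly family within Herc3. Its stretch, chr6:58856824-58856872, was 7 CpGs in the coding exon that only 5 mice covered, at a median of 13 reads. The levels were 46.1% in the B6 female, 45.7% in the DBA male, 40.5% in the BXD female, 76.4% in the BXD male and 56.7% in the DXB male, with a mean of 53.1% ± 14.3 (SD, n = 5). The 5 CGs read in all mice were not in this stretch and were higher, from 47.7% in the DBA female to 83.3% in the DXB female. The CpG 62 bp further into the gene was at 75.1% ± 12.1 (SD, n = 8). The CpGs of Herc3 that Nap1l5 does not share averaged 10.9%, with 33 of 37 below 25%.

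The levels of the genes beside these loci were also measured near their starts. They averaged 3.41% at Copg2 beside Mest, 5.17% at Zim1 and 89.6% at Usp29 beside Peg3, 3.73% at Cobl and 76.6% at Ddc beside Grb10, 11.1% at Casd1 and 25.3% at Ppp1r9a beside Peg10, 0.593% at Sf3b5 and 26.7% at Phactr2 beside Plagl1, and 33.2% at Bag3 and 14.3% at Mcmbp beside Inpp5f. Over these genes and the 3 host genes, 17 of 333 CpGs outside the members' windows had a mean from 25% to 75% (5.11%), against 8.19% of the 431124 measured CpGs near any start. Blcap held 4 of them, Phactr2, Ddc, Commd1, Bag3 and Mcmbp 2 each, and Copg2, Casd1 and Herc3 1 each. At 6 of the 14 genes no CG had 10 reads in all 8 mice, so levels in every mouse were not compared there.

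The ZFP57 motif, TGCCGC on either strand, was searched around these stretches. A match lay within the 300 bases centred on the CpG with the most reads at Plagl1, Nnat, Nap1l5 and Inpp5f, and inside the stretch, whose lengths differ widely and for which no background was computed, at Grb10, Nnat, Nap1l5 and Zrsr1. By comparison, 22.6% of 431124 windows of 300 bases around measured CpGs near any start, and 14.2% of 69965 windows at protein-coding transcript starts, held a match, as did 10.8% of the 35330 windows around CpGs with a mean from 25% to 75%. Of 9 motif CpGs that were measured, 5 were intermediate, 4 of them in Nnat (52.7% to 73.6%) and 1 in Nap1l5 (53.0%), and 4 were below 25%, of which 3 lay at the unmethylated main promoter of Grb10.

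At the 63 member CGs whose mean was from 25% to 75%, the median SD between mice was 11.8 points, 1.51 times the SD that counting alone gave, and at 23804 other such CGs the ratio was 1.41. Among 60 member CGs whose median over mice was in the range, the B6 male fell below 25% at 18, the DBA male at 12, the B6 female at 9 and the DBA female at 5, while the F1 mice did so at 1 to 3. Over all such CGs of the series the share below 25% was 10.2% in the B6 male, 11.5% in the DBA male, 5.71% in the B6 female and 12.1% in the DBA female, and 3.05% to 8.33% in the F1 mice, and the member shares were 30%, 20%, 15% and 8.33% in the parents in that order. The DBA male also lay above 75% at 10 of the 60 member CGs, against 9.28% of all such CGs.

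The comparison of F1 mice and parents asks whether the total level at these promoters is the same in both. Over the CGs measured in all mice, F1 mice were above the parents at 7 of 8 loci (30.6% of all genes) and below them at Peg10/Sgce, but no locus passed. By limma over 13687 genes, 0 of 9 members were called after Benjamini-Hochberg adjustment, as 0.0% of all genes were, and 5 members (4 loci) had an unadjusted p below 0.05, against 7.01% of all genes. Differences at members had a median of 8.18 points, and those over all genes a median of -0.881 points. The set of all genes was not matched to the members in level, here or in the comparisons below. Of the 431124 measured CpGs near starts, 275772 were low CpGs outside the MspI site, with a median of 0.465%. Low CpGs inside the site averaged 20.9% in the B6 male and 20.8% in the DBA male, against 7.90% to 13.7% in the other mice. The part of level and of the site in the values over all genes was not tested.

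Plagl1 had the largest difference. The 3 CGs of Plagl1 with 10 reads in every mouse, at 12810571, 12810604 and 12810620 on chromosome 10, lay just past the start and outside the stretch described above. They read 16.7%, 8.64%, 12.9% and 6.67% in the B6 female, B6 male, DBA female and DBA male, and 28.7%, 25.7%, 36.6% and 33.0% in the BXD female, BXD male, DXB female and DXB male. No F1 mouse overlapped a parent, with a difference of 19.8 points (SE 1.35, limma adjusted p = 0.110). Nnat (11.4 points, SE 1.87, limma adjusted p = 0.407) and Grb10 (8.18 points, SE 1.33, limma adjusted p = 0.407) also had no overlap, and over all genes F1 mice and parents did not overlap at 4.14% (F1 mice higher at 1.35%). Nnat read 40.6% to 55.1% in parents and 56.5% to 67.6% in F1 mice, and Grb10 13.0% to 19.9% and 21.8% to 29.9%. The Grb10 value joined CGs at different places. F1 minus parents was 16.6 to 23.6 points at single CGs from 11925631 to 11925679, outside the stretch. It was 5.33 to 10.2 points at CGs within the stretch and -19.2 to 0.297 at those of the main promoter. CGs near the most upstream start had both signs.

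Peg10/Sgce went the other way. Its CGs read 36.6%, 56.4%, 49% and 60.1% in the parents, in the same order, and 25.6%, 36.7%, 37.3% and 39.1% in the F1 mice, a difference of -15.8 points (SE 2.93, limma adjusted p = 0.446). The B6 female lay among the F1 mice, so the groups overlapped. Over CGs with 10 reads in all mice, Mest (10.4 points, 2 CGs), Nap1l5 (12.2 points), Inpp5f (3.23 points) and Zrsr1 (2.16 points) had overlapping groups. The Inpp5f value joined CGs of the main promoter (-11.3 to 3.95 points) and CGs near the internal start (5.93 to 13.3 points). Single mice weighed on these values. F1 minus parents came to 5.01 points at Mest and 1.49 at Inpp5f without the B6 male. At Nap1l5 it came to 2.66 without the DBA female and 21.8 without the DBA male. With 1 mouse left out it ran from 5.01 to 15.8 at Mest, 1.49 to 4.97 at Inpp5f and 4.83 to 9.21 at Grb10.

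Read reach moved with generation: the parents' libraries reached 76 or 100 bases, and those of the F1 mice 50 bases except for the BXD male. In the 3 libraries that reached 100 bases, the difference between the BXD male and the mean of the B6 and DBA females kept its sign at all 8 loci but was smaller at 7, and sex and generation cannot be told apart there. It was 11.0 points at Plagl1, 3.19 at Nnat, 2.86 at Grb10, 3.19 at Mest and -6.03 at Peg10/Sgce, and 16.7 at Nap1l5. The 2 male parents, reaching 76 bases, read 7.65% at Plagl1, 43.8% at Nnat and 58.2% at Peg10/Sgce on average, and the 2 female parents 14.8%, 53.3% and 42.8%. The part of reach in these differences was not tested.

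**Figure D5:**
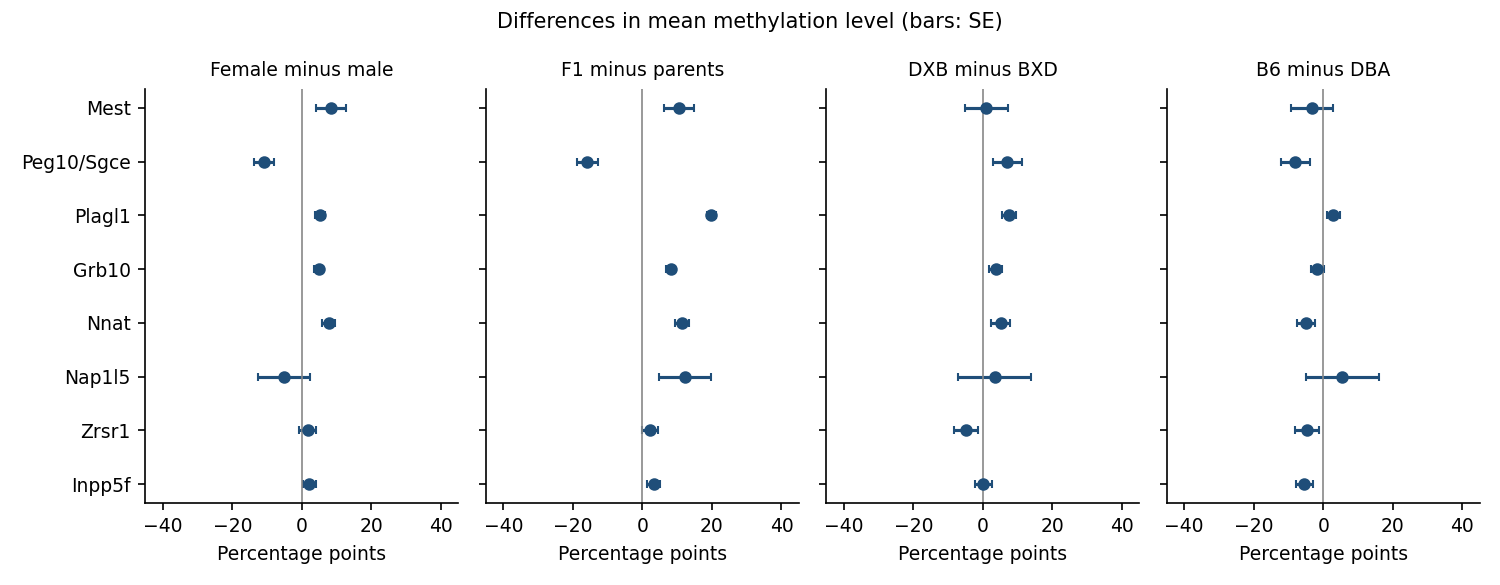
Differences in mean level between groups of mice (horizontal axis, percentage points, bars SE from limma) at each locus, over CGs with 10 reads in all 8 mice. The F1 minus parents values lie from -15.8 at Peg10/Sgce to 19.8 at Plagl1, and no value passed adjustment over all genes.

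No locus was called between females and males after adjustment. Of 9 members, 0 were called by limma, against 0.402% of genes, and 5 (4 loci) had an unadjusted p below 0.05, against 5.85% of genes. The differences were 7.76 points at Nnat (SE 1.87, limma adjusted p = 0.330), 5.22 at Plagl1 (SE 1.35), 4.78 at Grb10 (SE 1.33) and -11.0 at Peg10/Sgce (SE 2.93), and the groups overlapped at all 8 loci, while over all genes they did not overlap at 3.41% (females higher at 2.56%). With 1 mouse left out, the difference at Peg10/Sgce ran from -14.0 to -3.72 points, the latter without the B6 male, and that at Grb10 from 2.71 to 5.81, the former without the DBA male. Within each of the 4 kinds, the female was above the male at Nnat, Plagl1, Grb10 and Mest and below it at Peg10/Sgce, so 5 of 8 loci kept 1 sign, against 10.5% of all genes (female higher at 6.2%, male higher at 4.33%). At Nnat the female was higher by 10.9 points in B6, 8.21 in DBA, 1.75 in BXD and 10.1 in DXB, and at Mest the difference ran from 0.0267 to 24.6 points. Read reach differed between the sexes in all kinds but DXB. Among the libraries that reached 50 bases, the females minus the male came to 5.50 points at Nnat, 3.83 at Grb10, 4.29 at Mest, -0.303 at Plagl1 and -7.71 at Peg10/Sgce. Among those that reached 100 bases, the only male was the BXD male. There the signs were the reverse at Nnat (-3.19), Grb10 (-2.86), Mest (-3.19) and Peg10/Sgce (6.03), and Plagl1 was at -11.0. No member was called for a sex difference that changes between F1 mice and parents. The smallest limma adjusted p of that interaction was 0.183, at Zrsr1 (9.69 points, SE 2.04), and with 2 mice of each sex and generation this does not show that the sex difference was alike.

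The reciprocal crosses exchange the parent that gave each strain's chromosome. DXB minus BXD came to -4.83 points at Zrsr1 (SE 3.42), 0.137 at Inpp5f (SE 2.51) and 1.05 at Mest (SE 6.08), and to 3.39 to 7.55 points at the other loci. Leaving out 1 mouse gave -9.36 to -0.299 points at Zrsr1, 1.08 to 9.10 at Nnat, 1.69 to 5.79 at Grb10 and 6.07 to 9.03 at Plagl1. No member was called by limma (background 0.0% of genes). Plagl1 (7.55 points, SE 1.91) had an unadjusted p below 0.05, as did 1.54% of genes. Read reach differed within BXD, at 100 bases in the male and 50 in the female, and was 50 bases in both DXB mice. The part of reach in the cross differences was not tested. With 2 mice a cross, a p above the threshold does not show that the crosses were alike.

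No member was called between B6 and DBA parents. The library labelled B6 male was counted as B6 although its tags were 99.9% DBA near Mest and 45.8% DBA near Zrsr1. At these loci the contrast therefore set DBA chromosomes partly against DBA. Near Nap1l5 and Inpp5f no library had a tagged call within 1 Mb, so the strain of the B6 male was not checked there. B6 minus DBA was negative at 6 of 8 loci (40.9% of all genes), from -8.08 points at Peg10/Sgce (SE 4.15), or -2.19 there without the B6 female, to 5.44 at Nap1l5 (SE 10.5), and 0 of 9 members were called, against 0.117% of genes, with none at an unadjusted p below 0.05. At single CGs, 0 of 102 were called by limma in any of the 4 contrasts, against 0.0774% of all CGs for strain and 0.0% for the others, though 35 (34.3%) had an unadjusted p below 0.05 between F1 mice and parents, against 7.94% of all CGs. Between females and males 17 (16.7%) did so, against 5.58% of all CGs, and a quasi-binomial model of the counts called 0 for sex, with 1 of 102 member CGs and 1.85% of all CGs at an unadjusted p below 0.05. Neighbouring CGs are read on the same fragments in the same mice, so these shares do not count independent sites. Nor was the set of all CGs matched to the member CGs in level. The 35 included all 5 CGs of Peg10/Sgce, from 4697355 to 4697398, and all 3 of Plagl1, from 12810571 to 12810620.

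By the rule used for parents within a sex, which asks for a difference above 50 points with each level outside the 95% exact binomial interval of the other, 1 of 396 member CGs was called between the females, against 0.549% of all CGs, and 0 of 161 between the males, against 0.423%. With a difference above 30 points in place of 50, 8 of 396 member CGs were called between the females, against 1.62% of all CGs. Between the males 12 of 161 were, against 1.55%. Neighbouring CGs share reads. At Zrsr1, 22872947, 22872953, 22872982 and 22872990 read 46.9% in the B6 male and 78.9% to 81.3% in the DBA male. The order was the reverse at the nearby CG 22872992, with 24.6% in the B6 male and 16.2% in the DBA male. Near Zrsr1 45.8% of the tags of the B6 male were DBA, so the strains were not cleanly compared. At Nnat, 157385967 and 157385983 read 45.9% and 49.2% in the B6 male and 81.8% in the DBA male. The CG called at 50 points was at position 157387180 of chromosome 2 in Nnat (plus strand). The B6 female had 69.0% methylated of 29 reads (interval 49.2 to 84.7) and the DBA female 15.4% of 13 reads (interval 1.92 to 45.4). Intervals cover counting error only, as copies of 1 fragment cannot be told apart in the counts.

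Tagged alleles could not be compared at these promoters. No member CG within 3 kb of a start had, in any mouse, a read assigned by a SNP to either strain. The nearest CG with at least 10 sorted reads over the F1 mice was 29715 bp from a start of Plagl1. It was 31812 bp from Grb10 and 4363239 bp from Inpp5f. Maternal and paternal levels were therefore not analysed here, and an intermediate level is the total over both chromosomes.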

How the data were processed

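RRBS was made from liver of 8 mice, 1 of each kind and sex. The authors aligned reads to mm9 with BS Seeker (version not given in the sources used here), kept uniquely aligned reads, sorted reads carrying a SNP to a strain, and deposited, per cytosine and read class, the count of unmethylated and of methylated reads. The fraction of methylated reads that the authors deposited beside them was not used. Series tables hold the authors' own comparisons (means, intervals, differences and p-values) and were not used, and 12 columns of per-sample values in series tables were left unmapped.

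Counts were summed over read classes, and a CG needed 10 reads. Transcript starts were those of GENCODE M1 on NCBIM37 (mm9). A CpG joins both strands, and stretches used CpGs with 10 reads in at least 4 mice, at most 1000 bases apart. A gene's value was the mean over CGs with 10 reads in all 8 mice. Females and males, F1 mice and parents, crosses and strains were compared with limma 3.58.1 in R 4.3.3 (strain and sex as terms, Benjamini-Hochberg adjustment over all genes or CGs, threshold 0.05). Binomial intervals were exact at 95%. Scripts used Python 3.11.15, numpy 2.4.6, scipy 1.17.1, pandas 2.3.3 and pysam 0.24.0, and were tested on simulated data. The CpGs named are mainly the most-read, first and last of each stretch, the nearest outside it, and any called in a comparison. CpGs of Plagl1, of Peg3, of the most upstream Grb10 start and of dips or second runs were chosen after their values were seen. So were the MspI-site values, the single CGs of Zrsr1 with extreme levels in the DBA male, and the other single CGs quoted in the comparisons. Members and lists were chosen with earlier results of these data known. Alternatives changed the read minimum, range, distance, gap, scale, model and mice used.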

Additional observations from a re-analysis of the deposited data

Results flagged for a closer look

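Among 57 groups of 4 mice or more that were examined for a mouse far from the others, 2 had one, and chance alone gives about 1 in 20. At Nnat, the mean level over CGs with 10 reads in all mice was 67.6% in the DXB female, while the other F1 mice lay from 56.5% to 58.3%, so the gap took 0.841 of the range of the group. At Zrsr1, the mean of the stretch was 55.3% in the DBA male, while the other males lay from 45.6% to 46.2%, and the gap took 0.935 of the range.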

How the results depend on the processing

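The count of 21 CGs in the range of 25% to 75% in every mouse became 9 of 38 with at least 20 reads, 12 with a range of 30% to 70% and 33 with 20% to 80%, and lay from 21 to 33 when 1 mouse was left out. Between female parents the 1 called CG became 0 with at least 20 reads, 8 with a difference above 30 points and 0 with Fisher's exact test adjusted over all CGs, and between male parents 0 became 12 with a difference above 30 points. The other 89 of 97 alternatives left the main counts within 1.5 times, and the mean level over the stretches within its SD between stretches. Many of them were counts of members or CGs called between groups of mice, which were 0 and stayed at 0. With gaps of at most 500 bases the stretch of Nnat shortened to 14 CpGs (168 bp) and that of Zrsr1 to 21 (413 bp). With 30% to 70% Mest fell to 4 CpGs (40 bp), Nnat to 15 and Inpp5f to 1. With at least 20 reads Nnat fell to 14 CpGs and Nap1l5 to a different run of 2, and with 20% to 80% Nap1l5 grew to 13. The cause of these moves was not tested beyond the setting itself.

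No member difference was called in any of these fits (smallest limma adjusted p = 0.110). Signs turned in 21 of 372 alternatives. The female minus male difference of Zrsr1 was -2.98 points with at least 20 reads and -0.27 on the log2 odds scale, that of Inpp5f -0.50 on the log2 odds scale, and the F1 minus parents difference of Zrsr1 -0.16 on that scale. With 1 mouse left out, female minus male ran from -9.94 to 4.50 points at Nap1l5 and from -0.580 to 3.44 at Zrsr1, and F1 minus parents from -0.101 to 4.51 at Zrsr1. DXB minus BXD ran from -4.48 to 6.57 at Mest, -1.16 to 13.1 at Peg10/Sgce, -2.74 to 9.51 at Nap1l5 and -2.51 to 2.78 at Inpp5f, and B6 minus DBA from -14.1 to 7.61 at Mest and -13.7 to 24.6 at Nap1l5. Where this left 1 mouse in an arm, its spread was taken from the other groups. No paired analysis was possible because the labels carry no replicate numbers that pair mice, beyond the term for kind that the sex fit already holds. The maternal minus paternal comparison and its alternatives were not run, since no member CG had sorted reads. Coverage left Peg3 with no CpG read in 4 mice, Nap1l5 with a median of 13 reads, and Plagl1 with 6 mice.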
